A study of Mus musculus with 6 samples.

Results

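Ribosomal protein paralogs are duplicate copies of the genes for the proteins of the ribosome, and 5 of them were examined in mouse growth plate cartilage, each beside the parent gene it resembles: Rpl39l beside Rpl39, Rpl3l beside Rpl3, Rpl22l1 beside Rpl22, Rps27l beside Rps27 and Rpl7l1 beside Rpl7. These 10 genes were picked by name out of the 46078 genes in the count tables, and the set was put together because Rpl39l had already been seen to differ between the genotypes. The difference between genotypes is therefore given for the 10 genes as a description: no p-value is printed for them, and whether a gene passed the threshold of the fit over all genes is stated without support for any statement. The libraries were bulk RNA-seq of growth plate cartilage dissected from the distal femur and proximal tibia of E18.5 embryos. The 3 control libraries came from Idh1 LSL/+ animals without Cre, and the 3 mutant libraries from Col2a1-Cre; Idh1 LSL/+ animals, in which Cre driven by the Col2a1 promoter of chondrocytes removes the stop cassette and switches on a mutant Idh1, the gene for cytosolic isocitrate dehydrogenase. Both groups thus carried the lox-stop-lox allele, and the Cre transgene and the mutant enzyme cannot be told apart. The comparison addresses what the Cre transgene and expression of the mutant enzyme together change in growth plate cartilage as dissected. The methods call the controls littermates, the labels tie no sample to a litter, and the labels' text on animal care gives an age of 2 months where the sample labels give E18.5.

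Every ribosome is built from a large and a small subunit, and most of its proteins are encoded by a single active gene that is used in all cells. A few of these genes have a second, intact copy with a more restricted use. Rpl39 encodes a small protein that lines the tunnel through which the new protein chain leaves the large subunit, and its copy Rpl39l is best known from male germ cells. Rpl3 lies close to the catalytic centre of the large subunit, and Rpl3l takes its place in heart and skeletal muscle. Rpl22 is an RNA-binding protein of the large subunit that can hold down the RNA of its own copy Rpl22l1, Rps27l is a copy of the small-subunit protein Rps27 known as a target of p53, and Rpl7l1 is a distant relative of the large-subunit protein Rpl7.

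Because the authors counted reads placed at a single site only, the sequences decide which reads of these genes could be counted. Rpl39l (ENSMUSG00000039209) lies on the forward strand of chromosome 16 at chr16:10170226-10174911 of GRCm38, with 3 exons and an mRNA of 805 bases. Rpl39 (ENSMUSG00000079641) lies on the reverse strand of chromosome X at chrX:37082520-37085402, with 3 exons and an mRNA of 612 bases. The coding sequences of both are shown because this is the most similar of the 5 pairs and the one whose paralog differed between the genotypes. They were read from the GENCODE transcripts of GRCm38, 5′ to 3′ on the coding strand, and capitals mark the bases at which the pair differ.
Rpl39l: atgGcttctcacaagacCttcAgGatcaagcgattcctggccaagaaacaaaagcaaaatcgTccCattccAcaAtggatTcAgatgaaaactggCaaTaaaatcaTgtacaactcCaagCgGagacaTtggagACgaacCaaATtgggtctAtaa
Rpl39: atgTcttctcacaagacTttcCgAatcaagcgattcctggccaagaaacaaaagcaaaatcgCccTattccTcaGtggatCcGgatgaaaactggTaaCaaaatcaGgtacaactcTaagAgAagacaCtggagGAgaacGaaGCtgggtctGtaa
Both coding sequences were 156 bases long and lined up without gaps. They were identical at 133 of 156 bases (85.3%), with 23 substitutions. The longest identical run was 38 bases, and most of the substitutions lay after it. No stretch of 50 bases was common to both mRNAs, and 50 bases is the read length given in the methods, so that an intact read of one gene could not match the other along its whole length. With a shorter window of 36 bases, 3 windows were common to the pair.

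Rps27l (ENSMUSG00000036781, forward strand, chr9:66946086-66949516) and Rps27 (ENSMUSG00000090733, reverse strand, chr3:90212522-90213651) formed the next most similar pair, and their coding sequences are shown to show that the differing bases are scattered along the whole length, with no long identical stretch. Capitals again mark the differing bases.
Rps27l: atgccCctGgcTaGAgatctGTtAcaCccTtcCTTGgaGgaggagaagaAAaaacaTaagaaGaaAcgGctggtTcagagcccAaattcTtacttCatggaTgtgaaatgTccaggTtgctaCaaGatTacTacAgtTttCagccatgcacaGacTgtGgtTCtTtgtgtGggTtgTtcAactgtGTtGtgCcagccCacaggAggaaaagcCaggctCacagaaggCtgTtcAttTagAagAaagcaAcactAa
Rps27: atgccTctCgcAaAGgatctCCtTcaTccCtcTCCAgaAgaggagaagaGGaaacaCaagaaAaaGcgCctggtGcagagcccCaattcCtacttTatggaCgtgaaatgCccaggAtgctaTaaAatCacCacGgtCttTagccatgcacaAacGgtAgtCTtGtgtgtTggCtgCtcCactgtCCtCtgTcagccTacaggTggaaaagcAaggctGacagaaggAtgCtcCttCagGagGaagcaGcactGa
They were identical at 194 of 255 bases (76.1%), with 61 substitutions, and the longest identical run was 11 bases. The other pairs were less alike. Rpl3l (ENSMUSG00000002500, forward strand, chr17:24727820-24736143) was identical to Rpl3 (ENSMUSG00000060036, reverse strand, chr15:80077794-80091868) at 73.1% of aligned coding positions. Rpl22l1 (ENSMUSG00000039221, forward strand, chr3:28805436-28807424) was identical to Rpl22 (ENSMUSG00000028936, forward strand, chr4:152325742-152334071) at 66.9%. Rpl7l1 (ENSMUSG00000063888, reverse strand, chr17:46773907-46782656) was identical to Rpl7 (ENSMUSG00000043716, reverse strand, chr1:16101295-16104662) at 50.1%. In none of the 5 pairs did paralog and parent share a stretch of 50 bases.

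The 10 genes differed in how much of their sequence occurs in other annotated genes. Except for Rpl7l1, these were mostly pseudogenes, inactive copies of the gene. Each mRNA was cut into all of its windows of 50 bases. None of the 756 windows of Rpl39l and none of the 1326 windows of Rpl3l occurred in another annotated gene. In Rpl39, 93 of 563 windows (16.5%) did, shared with 9 other genes of which 8 were pseudogenes. The shared part was 9.19% in Rpl7l1, whose windows occurred in 520 other genes of which 6 were pseudogenes. It was 22.4% in Rps27l, 24.5% in Rpl22, 53.3% in Rpl7 (13 pseudogenes), 65.6% in Rpl22l1 and 85.6% in Rpl3 (26 pseudogenes). Rps27 stood apart, since 292 of its 296 windows (98.6%) occurred elsewhere. All 156 of its windows that lie inside a single exon were shared, whereas 140 windows crossed a splice junction, where a spliced placement on the gene competes with an unspliced one on a pseudogene. The levels of Rps27, Rpl3, Rpl22l1 and Rpl7 may thus be understated by the counting, and how many of their reads were left out was not tested. Counting ignored strand and dropped reads on more than 1 gene, and annotated genes overlapped 93 exon bases of Rpl3 (2.98%, Gm22077) and 159 exon bases of Rpl22l1 (7.99%, Gm33051).

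**Figure D1:**
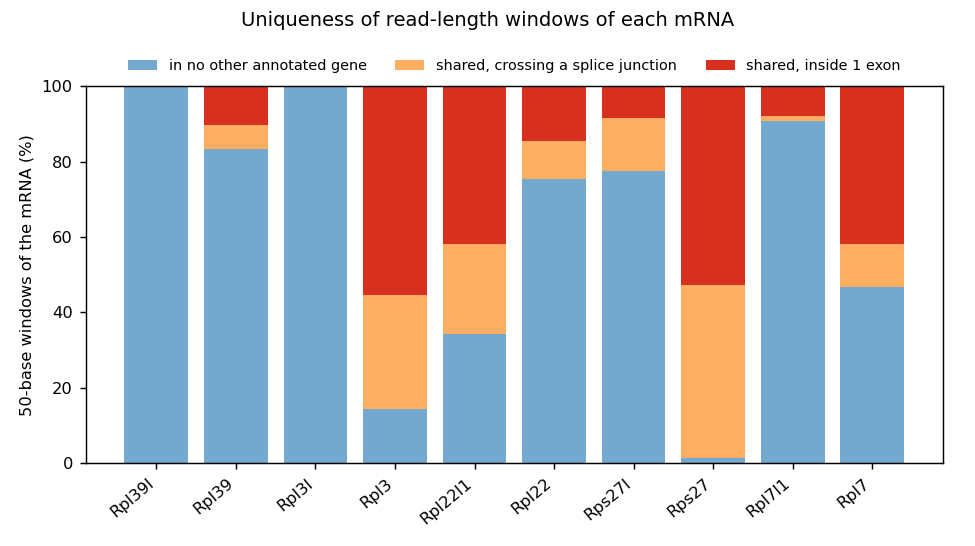
Share of the 50-base windows of each member's mRNA, in percent, that occur in no other annotated gene (blue), that are shared and cross a splice junction (orange), or that are shared and lie inside 1 exon (red). Rpl39l and Rpl3l had no shared window, and 98.6% of the windows of Rps27 were shared.

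The pseudogenes that share windows with a member had few counted reads. Reads placed at several sites were left out, so a read that fits both genes equally well was counted on neither. The counts therefore do not show how many reads came from pseudogenes. Not all of these pseudogenes are listed in the count tables, and the sums cover those that are. The 7 listed pseudogenes of Rpl39 (of 8) had 59 to 78 counts together per library, 2.17% of the counts of Rpl39. The 23 listed ones of Rpl3 (of 26) had 155 to 216, 1.52% of the counts of Rpl3. For Rps27 the 6 listed (of 8) came to 1 to 5 counts. The largest share was in Rpl7l1, where 4 of 6 were listed, 3 had any count, and together they had 192 to 262 counts, 9.20% of its own. Since windows of Rpl7l1 occurred in 520 other genes, a shared window does not show that these pseudogenes are copies of Rpl7l1. Whether they are was not tested.

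Library totals lay between 23445687 and 30415773 counts. Of the 46078 genes, 16813 passed the expression filter and were tested, among them all 10 members. At an adjusted p under 0.05 (quasi-likelihood test of edgeR, Benjamini-Hochberg adjustment) 32 genes or 0.19% were called, 23 of them lower in the mutants (0.137%) and 9 higher (0.0535%). Idh1, the targeted gene, had 37.3, 39.2 and 65.4 CPM (counts scaled to library size with edgeR's TMM factors) among controls against 47.6, 47.7 and 56.3 CPM among mutants, and its overlapping values do not separate the groups. The cartilage markers Col2a1, Acan, Sox9, Col9a1, Matn1, Comp, Cnmd and Hapln1 were present in every library, at 3406 to 6855 CPM summed in the controls and 5273 to 7450 CPM in the mutants. Muscle markers (Acta1, Ckm, Myh3, Myh8, Actn3, Tnnt3, Mylpf, Tnni2, Myog and Mb) summed to 14481 to 22400 CPM, above the cartilage sum in every library of both groups. The levels given here are thus those of the dissected tissue with its muscle, not of chondrocytes alone. Mutant 3 had 26356 counts of Xist, the RNA of the inactive X chromosome, where the other libraries had 0 to 13.

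Rpl39l was lower in the mutant growth plates. It had 351, 389 and 255 counts in controls 1, 2 and 3 and 118, 139 and 125 counts in mutants 1, 2 and 3. In CPM these were 12.5, 12.7 and 9.21 among controls against 5.001, 5.65 and 4.31 among mutants. Every mutant library lay below every control library, and the lowest control was still above the highest mutant. The mean was 11.5 ± 1.95 CPM (SD, n = 3) among controls against 4.99 ± 0.670 CPM (SD, n = 3) among mutants, so that the control mean was 2.30 times the mutant mean, and the log2 fold change was -1.20 (standard error 0.17). In bulk tissue, fewer cells that use the gene and less RNA per cell cannot be told apart.

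Rpl39 did not share this difference. It had 2887, 3855 and 3013 counts among controls against 2874, 3144 and 3003 among mutants. Its levels were 103, 126 and 109 CPM among controls against 122, 128 and 103 CPM among mutants, and the groups overlapped over nearly their whole range. Its log2 fold change was 0.07 (standard error 0.11). Rpl39 is X-linked, and mutant 3, the library with Xist, had the lowest Rpl39 level of the mutants, at 103 CPM; the part of the X chromosome in this was not tested.

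The ratio within the pair, taken from the same counts, showed the same separation in single libraries. For each count of Rpl39l there were 8.23, 9.91 and 11.8 counts of Rpl39 among controls, but 24.4, 22.6 and 24.0 among mutants. The ratio varied more among the controls than among the mutants. Scaled to the exon length in the count files, which allows only a rough comparison of different genes, Rpl39l made up 14.97 ± 2.30% (SD, n = 3) of the pair in the controls and 6.80 ± 0.252% (SD, n = 3) in the mutants. Scaled to the length of the principal mRNA instead, it made up 7.21% and 3.12%, because the exon length of Rpl39 includes longer transcript forms.

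**Figure D2:**
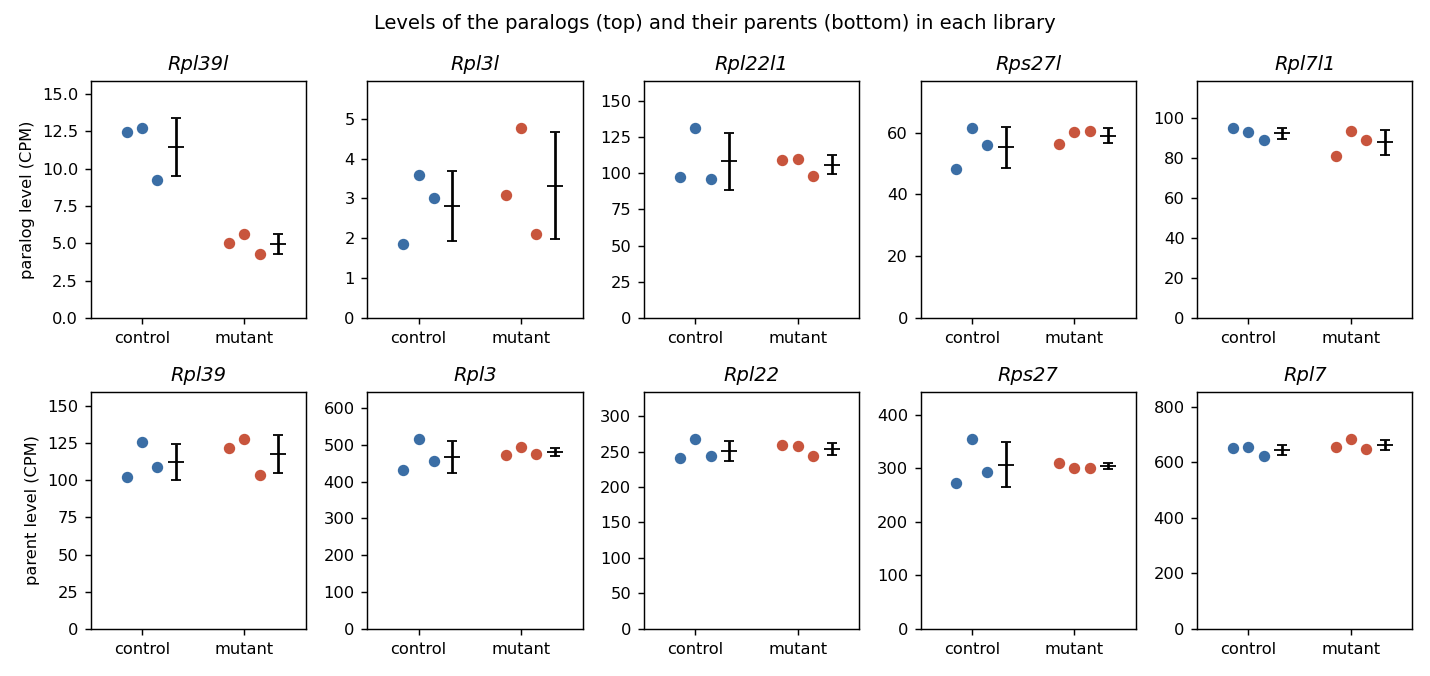
Level in each library, in CPM, of the 5 paralogs (upper panels) and their parents (lower panels), with controls in blue and mutants in red, and bars for the mean and SD of 3 libraries. Rpl39l lay between 9.21 and 12.7 CPM in the controls and between 4.31 and 5.65 CPM in the mutants, and in the other 9 genes the groups overlapped.

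Rpl3l, the copy used in striated muscle, was the lowest of the 10 genes. It had 52, 110 and 83 counts among controls against 73, 117 and 61 among mutants, or 1.85, 3.59 and 2.999 CPM against 3.09, 4.75 and 2.10 CPM. Libraries of both groups were mixed in order. The log2 fold change was 0.23 (standard error 0.33), the widest error of the set. The summed muscle markers, which mark the tissue where Rpl3l is used, were 15118, 16964 and 22400 CPM among controls against 20854, 19993 and 14481 CPM among mutants. Control 1 was the lowest control and mutant 3 the lowest mutant in both Rpl3l and the markers, whereas the highest library of each group differed between them; the part of muscle in the level of Rpl3l was not tested. Rpl3 had 431, 515 and 455 CPM among controls against 473, 493 and 474 CPM among mutants, with a log2 fold change of 0.04 (standard error 0.09). There were 144 to 233 counts of Rpl3 for each count of Rpl3l in the controls and 104 to 225 in the mutants.

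Rpl22l1 was the paralog closest to its parent in level. It had 97.4, 131 and 96.1 CPM among controls against 109, 110 and 98.3 CPM among mutants. Control 2 was the highest of the 6 libraries and the other values lay close together, and the log2 fold change was -0.03 (standard error 0.12). Rpl22, which can repress it, had 241, 267 and 244 CPM among controls against 259, 258 and 244 CPM among mutants, with a log2 fold change of 0.01 (standard error 0.08). There were 2.04 to 2.54 counts of Rpl22 per count of Rpl22l1 over the 6 libraries. Per kb of exon, Rpl22l1 made up 38.5 ± 2.83% (SD, n = 3) of the pair in the controls and 37.9 ± 0.708% (SD, n = 3) in the mutants.

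Rps27l, the p53 target of the set, had 48.3, 61.3 and 55.9 CPM among controls against 56.2, 60.2 and 60.4 CPM among mutants. The groups overlapped, with control 1 below the rest, and the log2 fold change was 0.10 (standard error 0.10). Rps27 had 273, 355 and 293 CPM among controls against 311, 300.3 and 302 CPM among mutants, with a log2 fold change of -0.01 (standard error 0.10). Its controls were spread more widely than its mutants, which all lay inside the range of the controls. Rps27l made up 18.7 ± 0.804% (SD, n = 3) of the pair per kb of exon in the controls and 19.9 ± 0.932% (SD, n = 3) in the mutants.

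Rpl7l1 had 94.9, 93.2 and 89.24 CPM among controls against 81.2, 93.6 and 89.15 CPM among mutants. Mutant 1 was the lowest library, mutant 2 lay within the controls and mutant 3 at their lower edge, and the log2 fold change was -0.07 (standard error 0.08). Rpl7, the member with the highest CPM, had 653, 657 and 624 CPM among controls against 654, 684 and 649 CPM among mutants, with a log2 fold change of 0.04 (standard error 0.09). There were 6.88, 7.05 and 6.99 counts of Rpl7 per count of Rpl7l1 among controls against 8.05, 7.31 and 7.28 among mutants. This ratio, like that of Rpl39 to Rpl39l, was higher in every mutant than in every control, but by a far smaller amount. How often ratios of other gene pairs stay apart in this way was not counted. In levels of single genes the groups did not overlap in 14.4% of tested genes. On the log2 scale the paralog changed against its parent by -0.11 in this pair and by -1.26 in the Rpl39l pair.

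**Figure D3:**
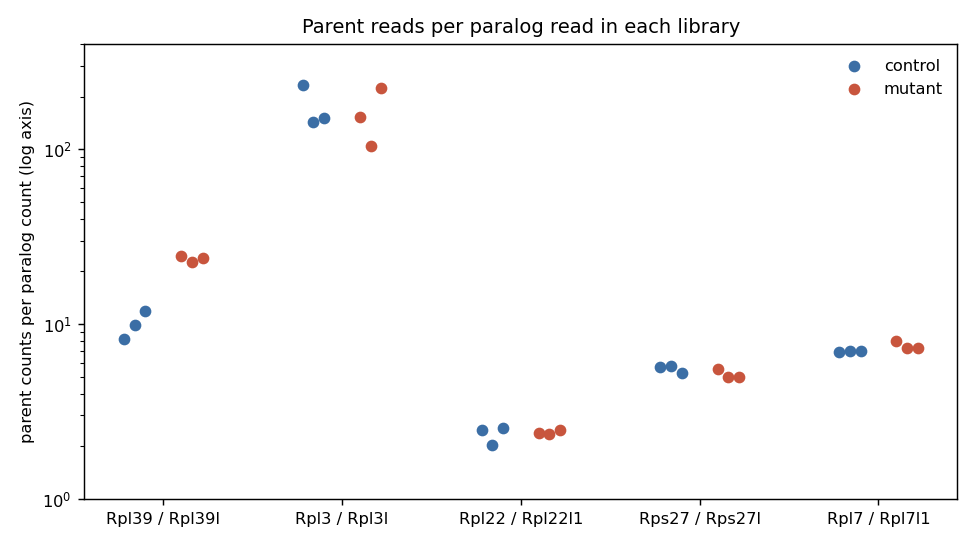
Parent counts per paralog count in each library on a log axis, for the 5 pairs, with controls in blue and mutants in red. The ratio of Rpl39 to Rpl39l was 8.23 to 11.8 in the controls and 22.6 to 24.4 in the mutants.

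Of the 10 members, Rpl39l was the 1 gene called, against 0.19% of all tested genes in the same comparison, and the 1 gene whose groups did not overlap, against 14.4% of tested genes (7.58% with the mutants lower and 6.85% with the mutants higher). DESeq2 also called Rpl39l alone among the 10, and 1.15% of tested genes. Since this contrast led to the choice of the set, nothing is read from these counts. The other 9 members had log2 fold changes between -0.07 and 0.23. The call of Rpl39l was not kept with every library left out. Its log2 fold change lay between -1.33 and -1.11 when each library was left out in turn. The adjusted p stayed under 0.05 without control 3 but not without control 1 (-1.14), control 2 (-1.12), mutant 1 (-1.21), mutant 2 (-1.30) or mutant 3 (-1.11). Calls over all tested genes fell as well, from 32 to between 3 and 17, so that such a loss was not particular to Rpl39l.

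Levels of different genes were compared per kb of exon, a rough scale whose values depend on the length used. In the controls the order was Rps27 (294 ± 40.7 CPM per kb, SD, n = 3), Rpl7 (239.9 ± 6.77), Rpl3 (149.7 ± 13.9), Rpl22 (86.1 ± 4.99), Rpl39 (78.4 ± 8.38), Rps27l (67.6 ± 7.98), Rpl22l1 (54.4 ± 9.92), Rpl7l1 (35.5 ± 1.12), Rpl39l (13.8 ± 2.34) and Rpl3l (1.71 ± 0.539). Every parent thus stood above its own paralog. The control ranges of Rpl22 and Rpl39, of Rpl39 and Rps27l, and of Rps27l and Rpl22l1 overlapped, and the other neighbours did not. Within single libraries Rps27l stood above Rpl22l1 in 6 of 6, and Rpl22 above Rpl39, and Rpl39 above Rps27l, in 5 of 6. In the mutants Rpl39l had 5.999 ± 0.806 CPM per kb (SD, n = 3) and was still between Rpl7l1 and Rpl3l. Per kb of principal mRNA Rpl22 (529 CPM per kb) stood above Rpl3 (346), while Rpl22l1 (196 ± 35.7, SD, n = 3) and Rpl39 (184 ± 19.6, SD, n = 3) overlapped, with Rpl22l1 higher in 3 of 6 libraries. On this scale Rpl7l1, Rpl39l and Rpl3l stayed the lowest of the 10.

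The remaining 74 genes for proteins of the cytosolic ribosome gave the setting of these values, and were taken from lists by function. None of the 74 was called by edgeR, none had an unadjusted p under 0.05 and none was called by DESeq2, beside 0.19%, 8.64% and 1.15% of all tested genes. The groups did not overlap in 1 of the 74 (1.35%), beside 14.4% of all tested genes. Their median log2 fold change was 0.04, beside -0.0026 for all tested genes, and 63 were above 0 and 11 below. The range was narrow, from -0.06 in Rpl36a, -0.05 in Rpl13a and -0.03 in Rpl28 to 0.15 in Rpl37 and 0.29 in Rpl24. The 43 genes of the large subunit had a median of 0.03 and the 31 of the small subunit one of 0.05.

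These genes moved together between libraries of a group. Summed over the 74 genes, the level was 27463, 33774 and 28911 CPM among controls against 31309, 31706 and 29951 CPM among mutants. Control 2 was the highest library for 56 of the 74 and control 1 the lowest for 60. Among the members, control 2 was highest for 6 of 10 and control 1 lowest for 6 of 10. Divided by this sum, Rpl39l had 0.454, 0.376 and 0.319 CPM per 1000 CPM of ribosomal protein RNA among controls against 0.160, 0.178 and 0.144 among mutants. The groups did not overlap on this scale, which adds no support, since the same counts led to the choice of the set. In every other member the groups overlapped, and the share of all tested genes that stay apart on this scale was not computed.

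**Figure D4:**
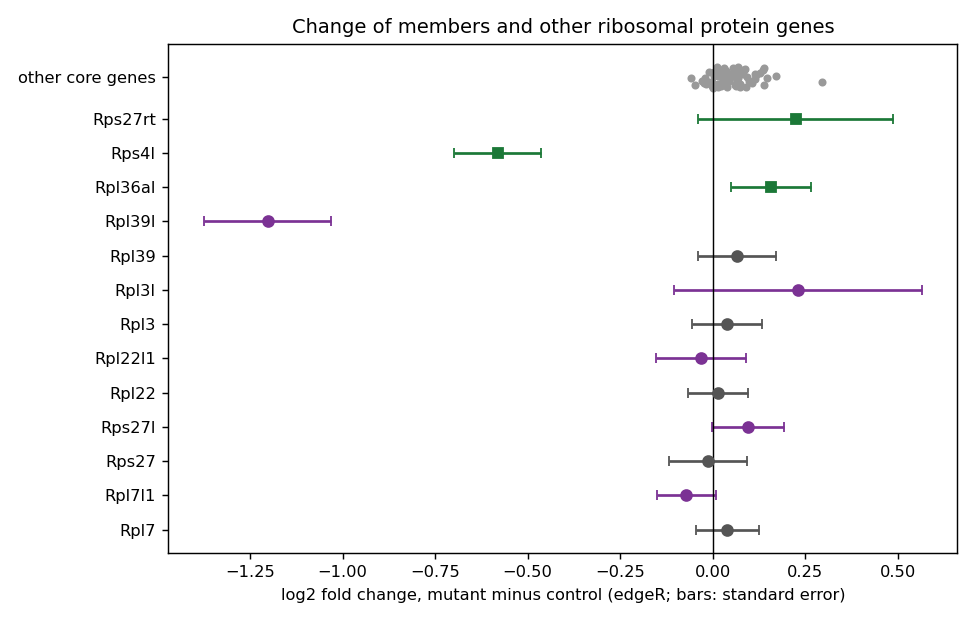
Log2 fold change, mutant minus control, with the standard error from edgeR, of the 5 paralogs (purple), their parents (dark grey) and 3 further paralogs (green squares), and the values of the 74 other ribosomal protein genes without error (light grey, top). Rpl39l lay at -1.20 and Rps4l at -0.58, and the 74 genes between -0.06 and 0.29.

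Further paralogs outside the 10 genes were read from the same fit. Rps4l (chromosome 6), a copy of the small-subunit gene Rps4x, had 1301, 1649 and 1147 counts among controls against 678, 873 and 882 among mutants, or 46.2, 53.8 and 41.4 CPM against 28.7, 35.5 and 30.4 CPM. The groups did not overlap, as in 14.4% of tested genes. Its log2 fold change was -0.58 (standard error 0.12), with an adjusted p of 0.135 from edgeR's quasi-likelihood test and of 0.00259 from DESeq2, and of 0.00106 from edgeR without the low-count filter, so that its call depended on the tool and the filter. Of its windows of 50 bases, 14.9% occurred in another annotated gene, a pseudogene. Rpl36al, a copy of Rpl36a, stood at 0.16 on the log2 scale (standard error 0.11, edgeR's adjusted p = 0.758), and Rps27rt, a retrogene of Rps27, at 0.22 (standard error 0.26, edgeR's adjusted p = 0.882), and 91.1% of its windows were shared. Rpl10l, a copy of Rpl10 known from testis, had 0 counts in all 6 libraries, which at the limit of 3 counts allows up to 0.0986 to 0.128 CPM, counting error only.

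Genes that act around the ribosomal proteins were taken from lists by function. Of 30 genes for ribosome assembly and ribosomal RNA synthesis, none was called by edgeR, none had an unadjusted p under 0.05 and none was called by DESeq2. Over all tested genes these shares were 0.19%, 8.64% and 1.15%. With so few genes called anywhere, the lack of calls among 30 genes says little about them. The groups did not overlap in 4 of the 30 (13.3%), near the 14.4% of all tested genes. The median log2 fold change was 0.01. The lowest p-values were those of Nop10 (log2 fold change -0.18, adjusted p = 0.609, edgeR), which belongs to the particles that modify ribosomal RNA, of Gnl3 (0.15, adjusted p = 0.680, edgeR), which encodes nucleostemin, and of Heatr1 (0.16, adjusted p = 0.699, edgeR), a factor of small-subunit processing. Of 12 targets of p53, the regulator that also acts on Rps27l, none was called by edgeR or DESeq2, beside 0.19% and 1.15% of all tested genes. An unadjusted p under 0.05 was found in 3, beside 8.64%. These were Bax (0.32, standard error 0.09, adjusted p = 0.334, edgeR), Pmaip1 (0.92, standard error 0.34, adjusted p = 0.471, edgeR) and Bbc3 (0.36, standard error 0.15, adjusted p = 0.524, edgeR), all of which encode proteins that promote cell death. The median of the 12 was 0.11, and the groups did not overlap in 3 of them (25.0%), beside 14.4% of all tested genes.

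Markers of other tissues were set beside Rpl39l. Of the germ cell markers Prm1, Prm2, Tnp1, Tnp2, Ddx4, Dazl, Sycp3 and Acrv1, none passed the expression filter, Acrv1 had 0 counts in every library, and the 8 together came to 0.448 to 0.817 CPM, far below the level of Rpl39l. Blood markers (Hba-a1, Hba-a2, Hbb-bt, Hbb-bs and Alas2) summed to 544, 1582 and 638 CPM among controls against 288, 426 and 329 CPM among mutants. All 5 had a negative log2 fold change (median -1.37), the groups did not overlap in 4, none was called by edgeR, 5 had an unadjusted p under 0.05 and 1 was called by DESeq2, beside 14.4%, 0.19%, 8.64% and 1.15% of all tested genes in the same order. Tendon markers (Tnmd, Scx, Mkx, Thbs4 and Fmod) summed to 2993, 3155 and 3288 CPM among controls against 2261, 2004 and 2341 CPM among mutants. Of these 5 genes, 1 was called by edgeR, 4 were called by DESeq2, 4 had an unadjusted p under 0.05 and the groups did not overlap in 4. Over all tested genes these shares were 0.19%, 1.15%, 8.64% and 14.4% in the same order. Their median was -0.52, and Thbs4 stood at 0.02. Skin markers (Krt5, Krt14, Krt1, Krt10 and Trp63) summed to 10.2, 20.2 and 17.5 CPM among controls against 9.92, 9.43 and 9.10 CPM among mutants. Of the skin markers 4 were tested, and edgeR called 1, beside 0.19% of all tested genes. This was Krt5, with a log2 fold change of -4.46. The sums of blood, tendon and skin markers and the level of Rpl39l were thus lower in every mutant than in every control, but control 2, far above the other controls in blood, was close to control 1 in Rpl39l; the part of these tissues in the level of Rpl39l was not tested. The bone markers (Bglap, Ibsp, Spp1, Sp7, Dmp1 and Phex) summed to 224 to 1427 CPM in the controls and 1291 to 2203 CPM in the mutants. All 6 had a positive log2 fold change (median 0.72), opposite to Rpl39l. None was called by edgeR or DESeq2, 2 had an unadjusted p under 0.05 and the groups did not overlap in 1. Beside these stand 0.19%, 1.15%, 8.64% and 14.4% of all tested genes.

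The genes whose levels ran most like Rpl39l over the 6 libraries were found by Pearson's r of log2(CPM + 1) across 14447 genes. They were Cilp (r = 0.998), which encodes a matrix protein of the intermediate layer of cartilage, Atg10 (0.992), an autophagy gene, Rbp4 (0.992), which encodes the carrier of retinol in blood, Skp2 (0.986), a subunit of a ubiquitin ligase of the cell cycle, and Bpgm (0.985), an enzyme of the red blood cell. With 6 libraries in 2 groups, such values follow the gap between the groups as well as the order within them. All 5 were lower in the mutants, with log2 fold changes of -0.72, -0.73, -0.75, -0.17 and -0.52. None was a ribosomal protein gene. Among the members the likeness was highest in Rpl7l1 (r = 0.590) and lowest in Rps27l (-0.44), and Rpl39 had an r of -0.08.

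On chromosome 16 the 5 nearest tested genes on each side of Rpl39l were compared as a description of its surroundings. None of the 10 was called by edgeR or DESeq2, beside 0.19% and 1.15% of all tested genes, and 2 had an unadjusted p under 0.05, beside 8.64%. These were Pmm2 with a log2 fold change of 0.27 and Grin2a, the nearest before Rpl39l, with -0.74. The range was -0.74 to 0.33.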

How the data were processed

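RNA of growth plate cartilage was sequenced in 3 control and 3 Idh1 mutant libraries. The authors trimmed reads with Trim Galore 0.6.4, mapped them to GRCm38 with STAR 2.6.1d and counted exon reads per gene with featureCounts 1.6.4, ignoring strand and leaving out reads placed at several sites or genes; the deposited values are whole-number counts without normalization. No column of per-sample values was left unused (0).

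The members, lists and alternatives were chosen with earlier results of these data known. In edgeR 4.0.16 (R 4.3.3), genes were filtered with filterByExpr (minimum count 10), scaled with TMM factors (0.964 to 1.02) and tested with the quasi-likelihood test on genotype alone (the study's own model, in DESeq2, also held the litter, which the labels do not give), with Benjamini-Hochberg adjustment over 16813 genes and a threshold of 0.05. The common dispersion was 0.0173. P-values set the genotype difference against the spread between these libraries. DESeq2 1.42.0, upper-quartile factors, a replicate block, other filters and each library left out were the alternatives. Replicates within a group differed beyond sampling noise (ratio of chi-square to degrees of freedom 11.7 to 45.9), more than sequencing the same library again would give. This does not show whether any libraries came from the same RNA.

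Windows of 50 bases were matched, on both strands, to annotated GENCODE transcripts of GRCm38, since a genome sequence was not used here, and a match to unannotated sequence would be missed. Named were all members, further paralogs, extremes or lowest p of each list, the 5 genes most like Rpl39l, tissue markers and Idh1; neighbours of Rpl39l, and Xist, were added after their values were seen, and a few genes that the rule would name are left out here. Cnmd is listed under its older symbol Lect1. Plots were made in Python 3.11.15 (matplotlib 3.10.9).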

Additional observations from a re-analysis of the deposited data

How the results depend on the processing

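The log2 fold change of Rpl39l lay between -1.21 and -1.19 under DESeq2, upper-quartile factors, the replicate block, no low-count filter and at least 10 counts in every library, and between -1.33 and -1.11 with each library left out. Over the other 9 members, 45 of 45 values under those settings and 54 of 54 with a library left out moved by less than the spread between replicates. With 3 libraries in a group, leaving out 1 moves the mean log2 level by less than this spread in any gene. The 54 values thus do not show how far these fold changes depend on single libraries. Without 1 library the log2 fold change ran from -0.12 to 0.48 in Rpl3l and from -0.11 to 0.13 in Rpl22l1. The sign also changed in Rpl3, Rpl22 and Rps27, and stayed the same in Rpl39, Rps27l, Rpl7l1 and Rpl7. The number of genes called was 32, and became 193 with DESeq2, 259 without the low-count filter (28686 genes tested), and 3 to 17 with a library left out. The number of members called was 1, and 0 to 1 with a library left out. The count of called genes among further paralogs, ribosome assembly genes and p53 targets went from 0 to 1 with DESeq2 and to 1 without the filter, Rps4l in both.

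With the replicate number as a block, 3 genes were called and 0 members, Rpl39l among those lost at a log2 fold change of -1.19. No pairing of the libraries by number was seen: deviations of same-numbered libraries had correlations of -0.18, -0.01 and -0.18. The deviations were taken from the group means, which ties these values to each other. They cannot show whether the numbers follow litters.

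The share of each paralog in its pair moved with the length used. In the controls it was 9.27% for Rpl39l, 0.591% for Rpl3l, 29.97% for Rpl22l1, 15.3% for Rps27l and 12.5% for Rpl7l1 in plain counts. Per kb of exon windows found in 1 gene it was 0.796% for Rpl3l, 16.6% for Rps27l and 8.97% for Rpl7l1. Per kb of principal mRNA, chosen after seeing the data, it was 7.21%, 0.581%, 26.9%, 11.1% and 6.02%. The cause of changes in the counts of called genes was not tested. Rpl3l rests on 52 to 117 counts per library, which limits its precision.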
